A study of Mus musculus with 31 samples.

Results

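The miR-183 cluster consists of miR-183, miR-96 and miR-182, which lie next to each other in the mouse genome. Its 3 mature 5p strands, mmu-miR-183-5p, mmu-miR-182-5p and mmu-miR-96-5p, were followed in mouse lung exposed to cigarette smoke. They were found by their names in the scanner files. They are 3 of 650 miRNAs on the array and hold 6 of its 1857 probes. Total RNA of lungs of female BALB/c mice, an inbred strain, was hybridised to 31 single-colour Agilent miRNA arrays. The smoke groups were exposed to cigarette smoke for 4, 6 or 8 weeks (4 arrays each) or 12 weeks (3 arrays), and each was set against a control group kept in room air for the same time (4 arrays each). The mice carried no named allele or transgene, and neither their age nor the smoke dose is stated in the labels. The labels do not say whether the arrays of a group came from separate mice, so p-values measure only the spread between these arrays, which may be technical.

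The genes of the cluster are transcribed together as a single primary RNA that is cut into 3 hairpins, and each hairpin gives a mature strand that guides repression of messenger RNAs paired to its seed. In mice the cluster is best known from sensory cells of the inner ear, the retina and the olfactory epithelium, where miR-96 is required for hearing. In mouse helper T cells, miR-182 and miR-96 are known to repress Foxo1, a transcription factor that restrains activation. The cluster is also used as a mark of epithelial cells beside the miR-200 family.

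The mature sequences are shown because the 3 members differ little in their seeds, so that an array difference between them has to be read against how alike the strands are. The sequences are those of RefSeq for GRCm38.p6, written 5′ to 3′, with the seed (bases 2 to 8) in capitals.
mmu-miR-183-5p: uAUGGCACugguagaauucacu
mmu-miR-96-5p: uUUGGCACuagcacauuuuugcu
mmu-miR-182-5p: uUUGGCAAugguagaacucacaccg

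Counting from 1 at the 5′ end, the seeds of miR-96-5p and miR-182-5p differ by C8A, those of miR-96-5p and miR-183-5p by U2A, and those of miR-182-5p and miR-183-5p by both U2A and A8C. Over the whole strand, seed included, the likeness is ordered differently. Laid side by side from the 5′ end without gaps, miR-182-5p and miR-183-5p were identical at 18 of 22 bases, with their longest shared run at bases 9 to 16. By the same count miR-96-5p matched miR-183-5p at 13 of 22 bases and miR-182-5p at 12 of 23. Of the 611 mouse miRNAs on the array, 476 had a RefSeq mature sequence under their name, and none of those but the members themselves had a member's bases 2 to 8.

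All 3 genes lie on the minus strand of chromosome 6. The mature miR-183-5p lies at chr6:30169711-30169732, miR-96-5p at chr6:30169506-30169528 and miR-182-5p at chr6:30165962-30165986. Read in the direction of transcription, the hairpin of Mir183 comes first, that of Mir96 follows after 116 bases, and that of Mir182 after a further 3453 bases. The 3 hairpins span 3820 bases in all. In RefSeq's gene table they lie within Mirc35hg, a host gene of the cluster, between the genes Nrf1 and Ube2h.

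Each member has 2 probes, with 7 to 10 usable spots per probe and array. The brighter probe of each was used. Signals are given on a log2 scale, as the scanner's background-subtracted signal over a scaling value for that array. The scaling value was the 75th percentile of the 385 probes that every one of the 31 arrays detected, and it came to 1201 to 2441 scanner units on the smoke arrays and 1018 to 3725 on the control arrays. A probe counted as detected on an array where at least 50% of its spots were well above background, and a miRNA was tested where it was detected on at least 75% of the arrays of any group. This left 272 miRNAs, all 3 members among them, although miR-182-5p was detected on 27 of 31 arrays, not on all.

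The 3 members were measured with unequal margins above background. The probe of miR-183-5p gave 64.5 to 231 scanner units over the arrays and was detected on all 31. Its other probe gave 32.1 to 114 units and followed it closely (r = 0.98 over 31 arrays). The probe of miR-96-5p gave 127 to 617 units on all 31 arrays, and its other probe followed it as closely (r = 0.99). The probe of miR-182-5p gave only 14.6 to 56.3 units, and its other probe was not detected on any array. The brighter probe was detected on all 15 smoke arrays and on 12 of 16 control arrays, the exceptions being array 3 of the 4 weeks control group, array 4 of the 6 weeks control group and arrays 1 and 4 of the 12 weeks control group. The median coefficient of variation between spots of a probe was 11.8% for miR-182-5p, against 6.03% for miR-183-5p and 5.70% for miR-96-5p, and no spot of the 3 was saturated. The opposite strand miR-183-3p has 4 probes, none of them detected on any array. The array had no probes under the names of the opposite strands of miR-182 and miR-96.

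At 4 weeks miR-183-5p and miR-182-5p rose in smoke lungs and miR-96-5p did not pass the test. Signals of miR-183-5p were -3.68, -3.21, -3.48 and -3.77 on the 4 smoke arrays, against -4.00, -4.17, -4.29 and -4.29 on the 4 control arrays. Every smoke array lay above every control array, with smoke array 2 the highest. The difference was 0.65 ± 0.11 log2 (SE), a 1.57-fold rise (limma, adjusted p = 0.000113). Signals of miR-182-5p were -5.87, -5.59, -5.65 and -5.95 on the smoke arrays, against -6.29, -6.36, -6.31 and -6.33 on the control arrays. These groups did not overlap either, and the difference was 0.56 ± 0.13 log2, a 1.47-fold rise (limma, adjusted p = 0.00319). Among all 272 miRNAs tested at 4 weeks, 38.2% passed and 26.8% passed as higher in smoke, and the median of all was itself 0.17 log2 above zero. All smoke arrays lay above all control arrays for 23.5% of the 272. A rise at 4 weeks is therefore shared with many other miRNAs. Neither call held with no scaling (0.58 and 0.48; limma, adjusted p = 0.312 and 0.521) or with the normexp background model, where miR-183-5p was at -0.46 and miR-182-5p at -0.97, against a median of all miRNAs of -0.75 (limma, adjusted p = 0.304 and 0.112). The call of miR-182-5p was also lost with the scaling value taken over all probes (0.46, limma, adjusted p = 0.0522).

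In miR-96-5p the 4 smoke arrays of 4 weeks split into a high and a low pair. They gave -2.17, -3.24, -2.81 and -2.17, against -2.34, -2.56, -2.58 and -2.45 on the control arrays. Smoke arrays 1 and 4 lay above all 4 controls and smoke arrays 2 and 3 below all 4. The difference was -0.12 ± 0.17 log2 (limma, adjusted p = 0.592). The same smoke arrays 2 and 3 were the ones on which miR-183-5p and miR-182-5p were highest. Without smoke array 2 the difference of miR-96-5p at 4 weeks was 0.10 (limma, adjusted p = 0.646), and without both it was 0.31 (limma, adjusted p = 0.202). Without both, miR-182-5p was at 0.41 and no longer passed at 4 weeks (limma, adjusted p = 0.158), from 2 smoke arrays.

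**Figure D1:**
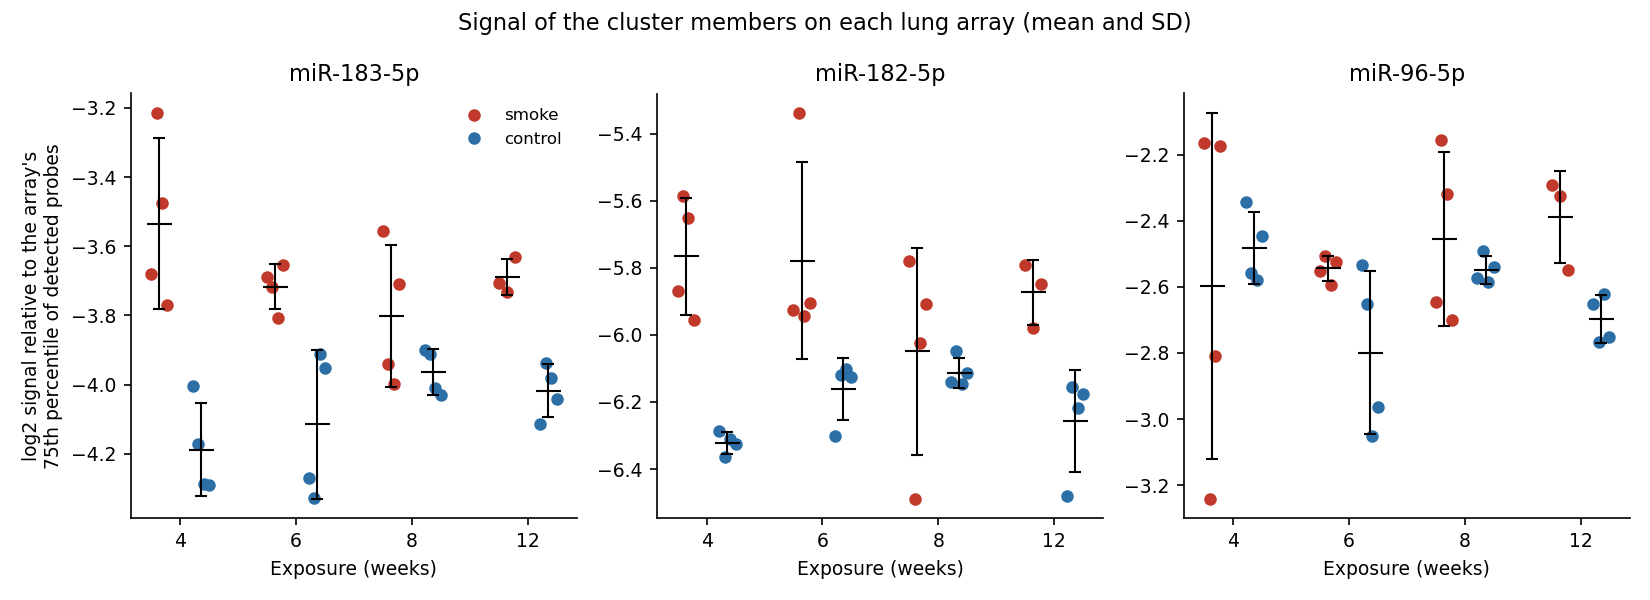
Log2 signal of each member (y axis, relative to the array's 75th percentile of detected probes) on each array at 4, 6, 8 and 12 weeks (x axis). Red points are smoke arrays and blue points control arrays, with horizontal ticks at the group mean and bars of 1 SD, and the panels have separate y axes. For miR-183-5p and miR-182-5p the red points lie above the blue ones at 4, 6 and 12 weeks, while for miR-96-5p smoke arrays 2 and 3 of 4 weeks, at -3.24 and -2.81, lie below the blue points.

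At 6 weeks miR-183-5p again rose. It was at -3.69, -3.72, -3.81 and -3.65 on the smoke arrays, against -4.27, -4.33, -3.91 and -3.95 on the control arrays. The groups did not overlap, with control arrays 1 and 2 well below the other pair. The difference was 0.40 ± 0.11 log2, or 1.32-fold (limma, adjusted p = 0.0202), in a comparison where 8.09% of the 272 miRNAs passed and 7.72% passed as higher in smoke. The call was lost without control array 1 (0.35, adjusted p = 0.0728), without control array 2 (0.33, adjusted p = 0.0696) and without smoke array 4 (0.38, adjusted p = 0.0596), all by limma. It was lost as well with quantile scaling (0.29), no scaling (0.38), the normexp model (0.24), the scanner's own sum per miRNA (0.22), the authors' deposited table (0.28) and the 6 weeks arrays fitted alone (0.40), with adjusted p from 0.0515 to 1 by limma.

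Levels of miR-182-5p at 6 weeks were -5.93, -5.34, -5.94 and -5.91 on the smoke arrays, against -6.30, -6.12, -6.10 and -6.13 on the control arrays. Smoke array 2 stood 0.57 above the next one, yet the groups were separate without it too. The difference was 0.38 ± 0.13 log2 and missed the threshold (limma, adjusted p = 0.0604). It passed when any of 4 arrays was left out: smoke array 3 of the same group (0.44, adjusted p = 0.0484), or, with the difference itself at 0.38 in each case, smoke array 2 of 4 weeks (adjusted p = 0.0473) or smoke array 1 or 2 of 8 weeks (adjusted p = 0.0463 and 0.0229), again by limma. It passed as well without smoke arrays 2 and 3 of 4 weeks (0.38, limma, adjusted p = 0.0420) and with a covariate for each array's score on the leading principal component of the other miRNAs, an alternative chosen after the data were seen (0.37, limma, adjusted p = 0.0121), which also put miR-96-5p past the threshold at 6 weeks (0.28, limma, adjusted p = 0.00132). In these 2 fits 33 and 81 of the 272 miRNAs passed at 6 weeks, against 22 in the fit reported here. Levels of miR-96-5p were -2.55, -2.51, -2.59 and -2.53 on the smoke arrays, against -2.53, -2.65, -3.05 and -2.96 on the control arrays. The smoke arrays were close together at the upper end of a control group that spread widely, and the difference of 0.26 ± 0.17 log2 did not pass (limma, adjusted p = 0.418). Every smoke array lay above every control array for 15.8% of the 272 miRNAs at 6 weeks, miR-183-5p and miR-182-5p among them.

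At 8 weeks no member passed in the fit reported here, where 11% of the 272 miRNAs did. Levels of miR-183-5p were -3.56, -3.94, -4.00 and -3.71 on the smoke arrays, against -3.90, -3.91, -4.01 and -4.03 on the control arrays. Smoke arrays 1 and 4 were above all controls and the other pair lay among them, for a difference of 0.16 ± 0.11 log2 (limma, adjusted p = 0.388). Levels of miR-182-5p were -5.78, -6.49, -6.02 and -5.91 on the smoke arrays, against -6.14, -6.05, -6.15 and -6.12 on the control arrays. Smoke array 2 was the lowest of all 31 arrays for this miRNA and the other smoke arrays were above every control. The difference was 0.06 ± 0.13 log2 (limma, adjusted p = 0.844), with -0.03 without smoke array 1 and 0.21 without smoke array 2.

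For miR-96-5p at 8 weeks the smoke arrays gave -2.65, -2.15, -2.32 and -2.70, against -2.57, -2.49, -2.59 and -2.54 on the control arrays. Here smoke array 2 was the highest of all 31 arrays, the reverse of its place in miR-182-5p, and the difference was 0.09 ± 0.17 log2 (limma, adjusted p = 0.822; -0.01 without smoke array 2). The 8 weeks arrays also differed in overall brightness: the scaling value was 1229 to 1681 units on the smoke arrays and 2337 to 3472 on the control arrays. With no scaling between arrays, the median of all 272 miRNAs at 8 weeks was -0.86 log2, and the members were at -0.66, -0.76 and -0.73, in the order miR-183-5p, miR-182-5p and miR-96-5p. There miR-183-5p and miR-182-5p passed as lower in smoke (limma, adjusted p = 0.0230 and 0.0284), while relative to the median of all miRNAs the members were at 0.20, 0.10 and 0.13. In that fit 202 of the 272 miRNAs passed as lower in smoke and 1 as higher. With the component covariate miR-183-5p passed as higher in smoke, at 0.15 (limma, adjusted p = 0.0229). With that covariate 31 of the 272 miRNAs passed as higher at 8 weeks and 70 as lower. The part of overall brightness in the results of 8 weeks was not tested.

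At 12 weeks the groups did not overlap for any member, yet none passed in the fit over all groups. Levels of miR-183-5p were -3.71, -3.73 and -3.63 on the smoke arrays, against -4.11, -3.94, -3.98 and -4.04 on the control arrays. The difference was 0.33 ± 0.12 log2 (limma, adjusted p = 0.0786). Levels of miR-182-5p were -5.79, -5.98 and -5.85 on the smoke arrays, against -6.48, -6.16, -6.22 and -6.18 on the control arrays, for a difference of 0.38 ± 0.14 log2 (limma, adjusted p = 0.0786). Both came close to the threshold, and control array 1, on which miR-182-5p was not detected, was the lowest control for each.

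Levels of miR-96-5p at 12 weeks were -2.29, -2.32 and -2.55 on the smoke arrays, against -2.65, -2.77, -2.62 and -2.75 on the control arrays, for a difference of 0.31 ± 0.18 log2 (limma, adjusted p = 0.281). At 12 weeks 9.56% of the 272 miRNAs passed, and all smoke arrays lay above all control arrays for 16.5%. These calls rest on the spread taken from all groups. With the 12 weeks arrays fitted alone all 3 passed (limma, adjusted p = 0.00687 for miR-183-5p and 0.0272 for both miR-182-5p and miR-96-5p), in a fit where 94 miRNAs passed, against 26 in the fit over all groups. In the fit over all groups miR-183-5p passed without smoke array 2 of 4 weeks (adjusted p = 0.0337), and miR-182-5p without smoke array 2 of 6 weeks (adjusted p = 0.0323) or of 8 weeks (adjusted p = 0.0356), with the differences themselves unmoved.

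Other processing gave further calls at 12 weeks. miR-183-5p passed with the scaling value taken over all probes (0.47, limma, adjusted p = 0.00394), with quantile scaling (0.35, adjusted p = 0.0252), without smoke arrays 2 and 3 of 4 weeks (0.33, adjusted p = 0.0244) and on its other probe (0.34, adjusted p = 0.0446). Of the 272 miRNAs, 28, 45 and 46 passed in the first 3 of these fits, in that order. With the component covariate all 3 members passed, miR-183-5p at 0.38, miR-182-5p at 0.42 and miR-96-5p at 0.22 (limma, adjusted p = 9.04e-06, 0.00676 and 0.0120). In the covariate fit 104 of the 272 miRNAs passed at 12 weeks, against 26 in the fit without it.

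Averaged over the 4 durations, miR-183-5p and miR-182-5p were higher in smoke lungs. In bulk lung, a change in how much of a miRNA each cell holds and a change in the share of cells that hold it cannot be told apart. The smoke arrays of miR-183-5p ran from -4.00 to -3.21 with a median of -3.71, and the control arrays from -4.33 to -3.90 with a median of -4.02. Of the 15 smoke arrays 13 lay above every one of the 16 control arrays, the exceptions being smoke arrays 2 and 3 of 8 weeks. The averaged difference was 0.39 ± 0.06 log2 (95% interval 0.27 to 0.50), a 1.31-fold rise (limma, adjusted p = 6.66e-06).

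The smoke arrays of miR-182-5p ran from -6.49 to -5.34 with a median of -5.91, and the control arrays from -6.48 to -6.05 with a median of -6.17. Of the 15 smoke arrays 14 lay above every control array and 1, array 2 of 8 weeks, below every one. The averaged difference was 0.35 ± 0.06 log2 (95% interval 0.21 to 0.48), a 1.27-fold rise (limma, adjusted p = 0.000172). Of all 272 miRNAs, 27.6% passed in this comparison and 15.4% passed as higher in smoke, which is the background to 2 of 3 members passing. By the size of p, miR-183-5p was number 12 and miR-182-5p number 24 among the 272.

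The third member, miR-96-5p, did not pass on average. Its smoke arrays ran from -3.24 to -2.15 with a median of -2.53, and its control arrays from -3.05 to -2.34 with a median of -2.58. Of the 15 smoke arrays 6 lay above every control array and 1 below every one. The averaged difference was 0.14 ± 0.08 log2 (95% interval -0.04 to 0.31; limma, adjusted p = 0.244), and a single array decided the call. Without smoke array 2 of 4 weeks the difference was 0.19 (limma, adjusted p = 0.0336), and without smoke arrays 2 and 3 of 4 weeks it was 0.24 ± 0.06 (limma, adjusted p = 0.00198). For miR-183-5p the average stayed between 0.36 and 0.41, and for miR-182-5p between 0.31 and 0.38, whichever 1 of the 31 arrays was left out, and both passed each time.

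**Figure D2:**
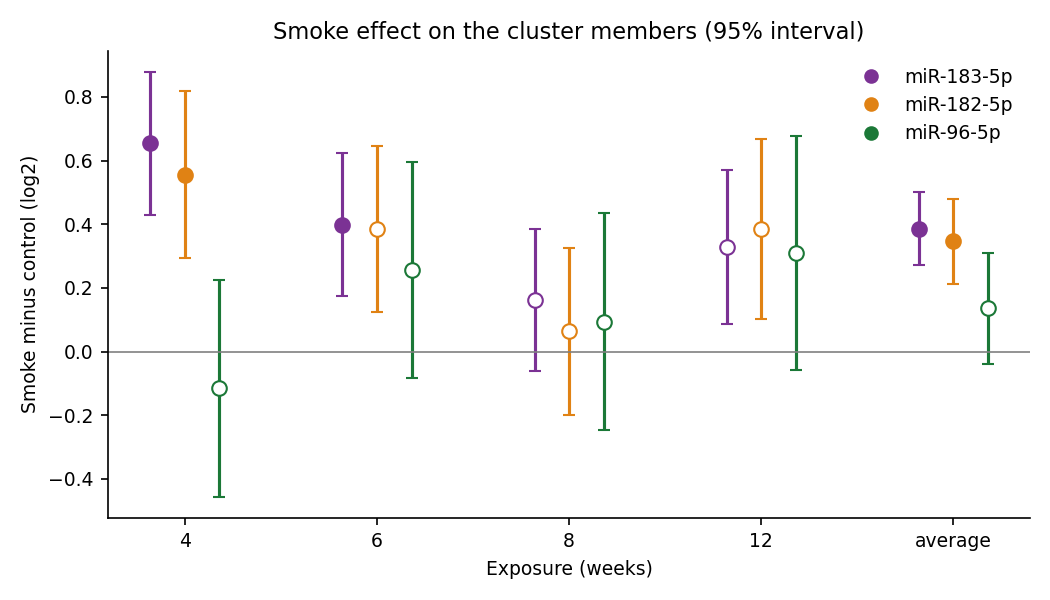
Smoke minus control difference in log2 (y axis) at each duration and averaged over the 4 durations (x axis), with bars for the 95% interval of the fit over all 31 arrays. Filled points passed an adjusted p of 0.05 and open points did not. For miR-183-5p the largest difference is 0.65 at 4 weeks and the smallest 0.16 at 8 weeks, and only miR-96-5p has a difference below zero, -0.12 at 4 weeks.

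The averaged calls depend on the background correction and on scaling the arrays. With the normexp background model in place of the scanner's subtraction, miR-183-5p was at 0.05 (limma, adjusted p = 0.896), miR-182-5p at -0.10 (adjusted p = 0.842) and miR-96-5p at -0.01 (adjusted p = 0.962). In that processing the median of all miRNAs was -0.15, and relative to it the members were at 0.20, 0.04 and 0.13. The normexp model adds an offset of 50 to signals. The median signal of miR-182-5p was 26.6 units in smoke and 22.2 in control arrays, and that of miR-183-5p was 125 and 102 units. The part of the offset in these differences was not tested. Without scaling, miR-183-5p was at 0.24 (adjusted p = 0.219) and miR-182-5p at 0.19 (adjusted p = 0.414), and miR-96-5p at -0.01 (adjusted p = 0.984), with a median of all miRNAs of -0.15. Relative to that median the members were at 0.39, 0.34 and 0.14. In the authors' deposited table miR-183-5p and miR-182-5p passed as well, at 0.30 (limma on that table, adjusted p = 1.02e-05) and 0.16 (adjusted p = 0.0204). There 111 of the 272 miRNAs passed on average, 45 as higher in smoke and 66 as lower.

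**Figure D3:**
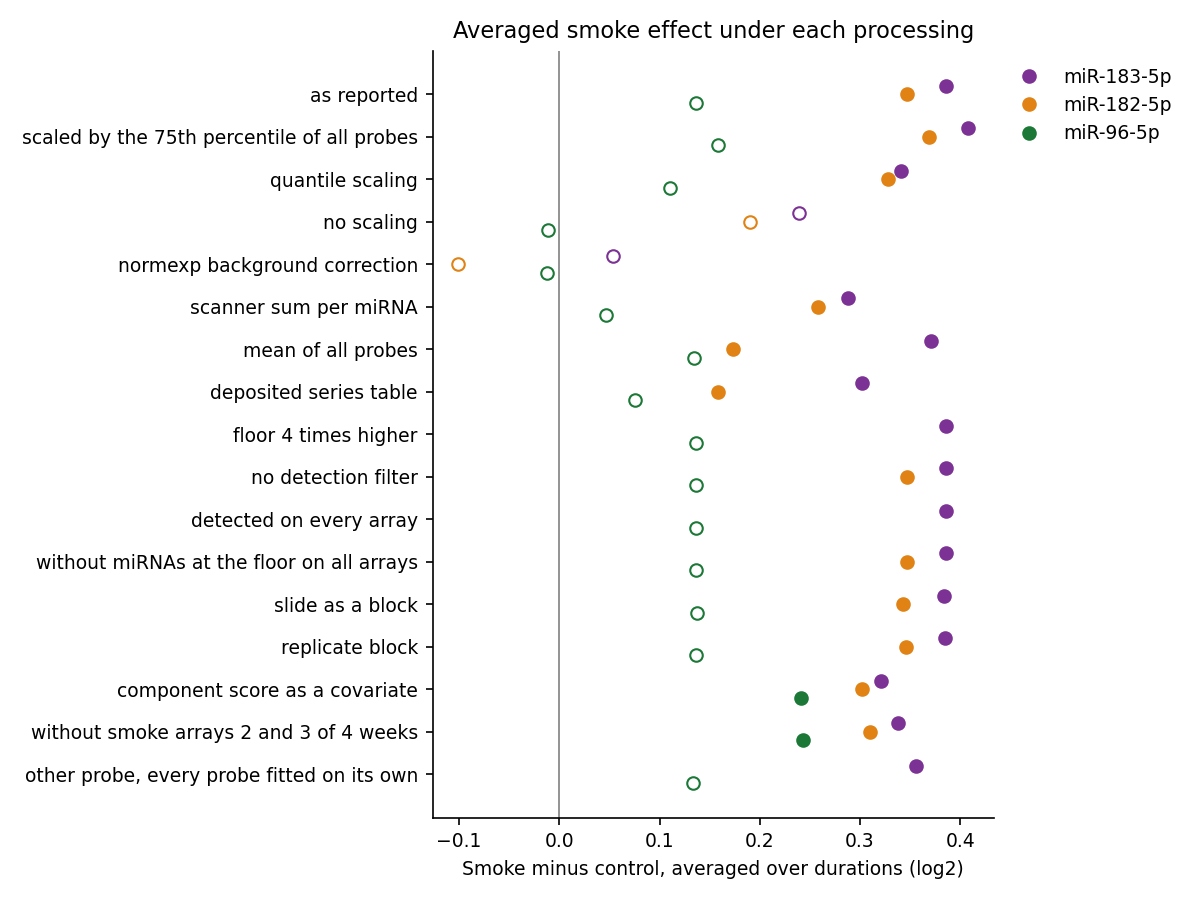
Averaged smoke minus control difference in log2 (x axis) of the 3 members under each processing that was tried (y axis, the reported one on top), with filled points where the adjusted p was 0.05 or less. The points of miR-183-5p and miR-182-5p are open with no scaling and with the normexp correction, and the point of miR-96-5p is filled only with the component score as a covariate, at 0.24, and without smoke arrays 2 and 3 of 4 weeks, at 0.24.

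The size of the smoke effect did not pass a test of difference between durations for any member in the fit reported here, though it did under some other processing. The test gave an adjusted p of 0.113 for miR-183-5p, 0.167 for miR-182-5p and 0.381 for miR-96-5p (limma's F test), where 6.99% of the 272 miRNAs passed. For miR-183-5p it passed in 1 of the 31 fits that left out 1 array, without smoke array 4 of 4 weeks (adjusted p = 0.0462). It also passed with no scaling for miR-183-5p and miR-182-5p (limma, adjusted p = 0.0184 and 0.0353) and with the component covariate for miR-183-5p (limma, adjusted p = 0.0423). Of the 272 miRNAs, 133 passed this test with no scaling and 68 with the component covariate. Among control lungs alone the durations did not pass either, with adjusted p of 0.315 for miR-183-5p, 0.490 for miR-182-5p and 0.363 for miR-96-5p (limma's F test), where again 6.99% of the 272 passed. With no scaling miR-183-5p and miR-182-5p passed here (limma, adjusted p = 0.0162 and 0.0271), and with the component covariate miR-183-5p did (limma, adjusted p = 0.0115). In these fits 151 and 97 of the 272 miRNAs passed among control durations, in that order.

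Ordered by group mean, all 4 smoke groups stood above all 4 control groups for miR-183-5p, from the highest at -3.53 ± 0.25 (SD, n = 4) in 4 weeks smoke to -3.80 ± 0.21 (SD, n = 4) in 8 weeks smoke. The control groups followed, with -3.96 ± 0.07 (SD, n = 4) at 8 weeks and the lowest level, -4.19 ± 0.13 (SD, n = 4), at 4 weeks. In this order no neighbouring groups were further apart than the larger of their SDs. For miR-182-5p the order again put all smoke groups first, from -5.77 ± 0.17 (SD, n = 4) in 4 weeks smoke to -6.05 ± 0.31 (SD, n = 4) in 8 weeks smoke. The 4 weeks control group was last there too, at -6.32 ± 0.03 (SD, n = 4). For miR-96-5p smoke and control groups were mixed: 12 weeks smoke was the highest at -2.39 ± 0.14 (SD, n = 3), 4 weeks smoke was number 6 at -2.60 ± 0.52 (SD, n = 4), and 6 weeks control was the lowest at -2.80 ± 0.25 (SD, n = 4). Neighbours did not differ beyond the larger SD for these 2 members either, so the ranks within smoke or within control groups carry little weight.

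Because the members share their transcript, the difference between members within each array was compared between smoke and control lungs. The log2 signal of miR-183-5p minus that of miR-182-5p ran from 1.62 to 2.55 over the smoke arrays (median 2.20) and from 1.79 to 2.37 over the control arrays (median 2.16). The smoke effect on this difference was 0.04 (stratified permutation test, two-sided, p = 0.50). For miR-183-5p minus miR-96-5p the values were -1.79 to 0.03 in smoke (median -1.21) and -1.84 to -0.86 in control (median -1.44), an effect of 0.25 (permutation p = 0.0724, adjusted over the 3 pairs p = 0.187).

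For miR-182-5p minus miR-96-5p they were -4.33 to -2.35 in smoke (median -3.37) and -3.94 to -3.05 in control (median -3.57), an effect of 0.21 (permutation p = 0.125, adjusted p = 0.187). No pair passed, with standard deviations within groups of 0.17 for the first pair and 0.37 for both pairs that hold miR-96-5p. By duration the effects on miR-183-5p minus miR-96-5p were 0.77 at 4 weeks, 0.14 at 6 weeks, 0.07 at 8 weeks and 0.02 at 12 weeks. Without smoke array 2 of 8 weeks both pairs with miR-96-5p passed, at 0.29 and 0.27 (permutation, adjusted p = 0.0491), and without smoke arrays 2 and 3 of 4 weeks they were at 0.10 and 0.07 (permutation, adjusted p = 0.633). The size of these 2 differences, and whether they passed, thus turned on a few arrays. Neither changed sign when 1 array was left out (0.17 to 0.30 and 0.14 to 0.27). With normexp that of miR-182-5p minus miR-96-5p turned to -0.089.

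Across the 31 arrays miR-183-5p and miR-182-5p moved together and miR-96-5p did not follow them. The strands of miR-183-5p and miR-182-5p are identical at 18 of 22 bases, and binding of one strand to the other's probe was not tested. Between miR-183-5p and miR-182-5p Pearson's r was 0.80 and Spearman's rho 0.86 (permutation p = 1e-05 for each, the smallest that 100000 resamples can give, and 3.0e-05 adjusted over 3 pairs). These permutations shuffled all 31 arrays regardless of group, so the p-values take in the smoke difference that both members share. Within the 4 slides r was 0.66 to 0.97, without smoke arrays 2 and 3 of 4 weeks it was 0.74, and between deviations from the group means it was 0.52. The relation was therefore smaller, though of the same sign, once group means were taken out. Between miR-183-5p and miR-96-5p r was -0.19 and rho -0.002 (permutation p = 0.297 and 0.992, adjusted over the 3 pairs p = 0.368 and 0.992). Between miR-182-5p and miR-96-5p r was -0.17 and rho -0.03 (permutation p = 0.368 and 0.880, adjusted p = 0.368 and 0.992). Without smoke arrays 2 and 3 of 4 weeks these r were 0.17 and 0.08, and without smoke array 2 alone 0.07 and 0.002.

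Taken as deviations from group means, miR-183-5p and miR-96-5p ran against each other, with r = -0.77, and miR-182-5p and miR-96-5p less so, with r = -0.52. The sign of both values turned on unscaled signals, where the same correlation of deviations was 0.84 for miR-183-5p with miR-96-5p and 0.81 for miR-182-5p with miR-96-5p. Between miR-183-5p and miR-182-5p it was 0.93 on unscaled signals. All such correlations share the arrays, their scaling and their RNA, and they are descriptions.

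The opposite movement followed the leading pattern of the arrays. A principal component analysis over the 205 miRNAs detected on all arrays, with the members left out, gave a first component that held 47.4% of the variance. Its sign was set so that miR-142-3p falls as the score rises. The score was highest on smoke arrays 2 (9.06) and 3 (4.82) of 4 weeks and ran from -4.26 to 9.06 over smoke arrays and from -5.27 to 3.90 over control arrays. At 4 weeks its mean was 2.77 in smoke and -3.07 in control with no overlap, and at the other durations the smoke and control ranges overlapped.

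Over all 31 arrays the score correlated with miR-183-5p at r = 0.70, with miR-182-5p at r = 0.55 and with miR-96-5p at r = -0.79. As deviations from group means the values were 0.89, 0.53 and -0.93, and without smoke arrays 2 and 3 of 4 weeks the pooled values were 0.53, 0.40 and -0.69. With the score as a covariate the averaged smoke effects were 0.32 ± 0.03 log2 for miR-183-5p, 0.30 ± 0.06 for miR-182-5p and 0.24 ± 0.03 for miR-96-5p (limma, adjusted p = 5.68e-10, 0.000102 and 1.08e-06). In that fit 148 of 272 miRNAs passed, against 75 without the score. At 4 weeks it put miR-96-5p at 0.35 (limma, adjusted p = 0.00136) and miR-182-5p at 0.35 (limma, adjusted p = 0.0629), where 43 of 272 miRNAs passed. What the score stands for, and its part in these differences, was not tested.

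**Figure D4:**
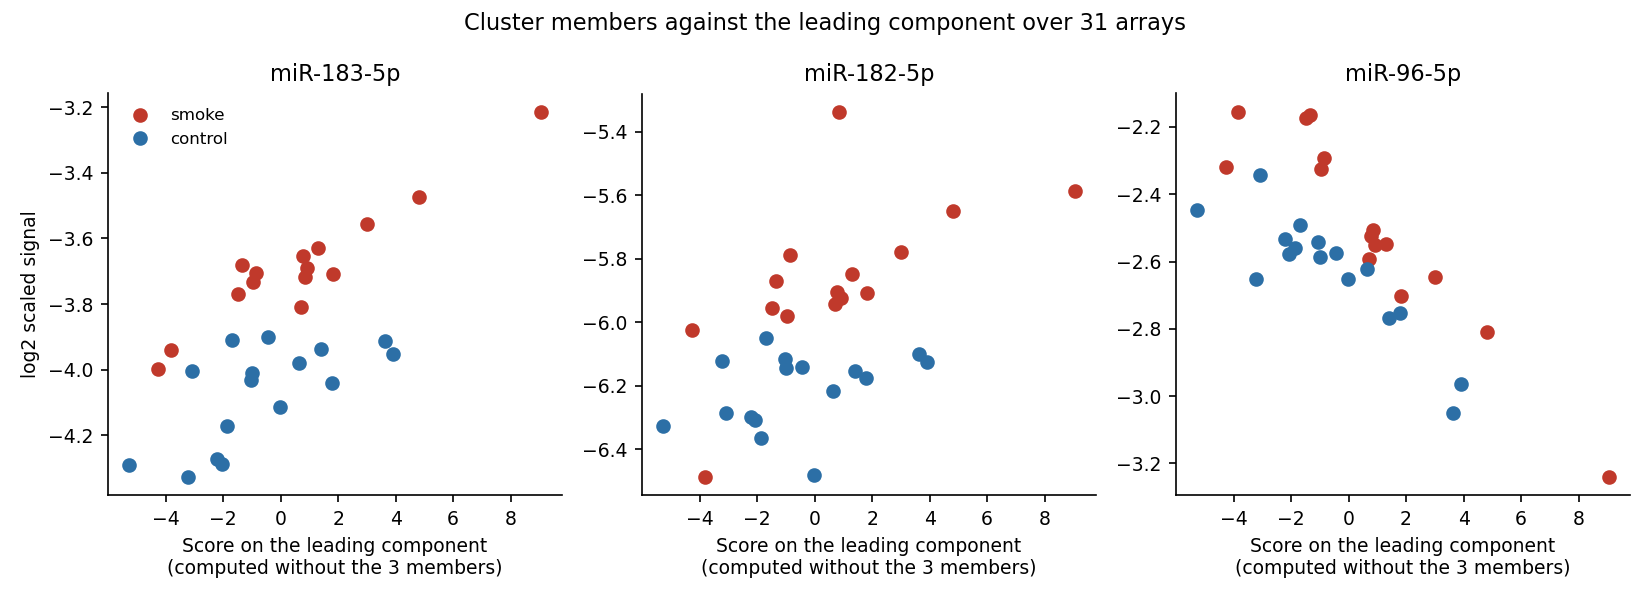
Log2 scaled signal of each member (y axis, separate per panel) against the array's score on the leading component (x axis, computed without the members), with red points for 15 smoke arrays and blue points for 16 control arrays. Signals of miR-183-5p and miR-182-5p go up with the score (r = 0.70 and 0.55) and signals of miR-96-5p go down (r = -0.79), and the red points at 9.06 and 4.82 are smoke arrays 2 and 3 of 4 weeks.

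Each slide carried both conditions, which allowed the smoke effect to be taken slide by slide. Within the 4 slides the averaged difference of miR-183-5p was 0.33 to 0.45 log2 and smoke was higher in 14 of 15 pairs of the same duration and slide. For miR-182-5p it was 0.27 to 0.38, with smoke higher in 14 of 15 pairs. The exception was the pair of 8 weeks on slide 2 for both. For miR-96-5p it was 0.03 to 0.18, with smoke higher in 10 of 15 pairs. On every slide smoke arrays lay in the first line of positions and control arrays in the second, so position and smoke cannot be told apart. Each duration had its own column of positions, so position and duration cannot be told apart either, which holds for the tests between durations above.

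The miRNAs whose signals ran most like a member's were taken as the 5 with the highest Pearson correlation over the 31 arrays, among 264 tested mouse miRNAs other than the members. For miR-183-5p they were miR-672-5p (r = 0.96), miR-132-3p (0.91), miR-199a-3p (0.85), miR-342-3p (0.83) and miR-155-5p (0.83), against a median of 0.29 over the 264. Of these, miR-155-5p is known from activated leukocytes and miR-199a-3p from mesenchymal cells. All 5 passed on average over durations, from 0.13 for miR-199a-3p to 0.88 for miR-132-3p. Of all 272 miRNAs, 27.6% passed in that comparison. For miR-182-5p the nearest were miR-31-5p (r = 0.84), miR-132-3p (0.83), miR-429-3p (0.80), miR-93-5p (0.79) and miR-532-5p (0.78), against a median of 0.25. Of these 4 passed on average, and miR-93-5p, at 0.16, did not (limma, adjusted p = 0.0593). Both sets were picked by likeness over the same arrays, on which both members were higher in smoke. Their passing is therefore not a separate result.

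The neighbours of miR-96-5p were other miRNAs. They were miR-208b-3p (r = 0.93), which lies in an intron of a muscle myosin gene, miR-141-3p (0.87), miR-324-5p (0.81), miR-101b-3p (0.81) and miR-200a-3p (0.81), against a median of -0.38 over the 264. None of them passed on average, with differences from -0.08 for miR-141-3p to 0.14 for miR-208b-3p. They too were picked over the same arrays, on which miR-96-5p itself did not pass, so this is not a separate result either. Of the 5, miR-141-3p and miR-200a-3p belong to the miR-200 family of epithelial miRNAs. Only miR-132-3p was among the nearest 5 of more than 1 member.

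Other epithelial miRNAs gave a mixed picture. Of a list of 12 miRNAs known from epithelia, 11 were tested. On average over durations 2 rose, 0 fell and 9 did not pass, with a median of 0.05 log2, against -0.01 for all 272. Among all 272, 42 rose and 33 fell. The 2 of the list that rose were miR-429-3p, of the miR-200 family, at 0.27 ± 0.04 (limma, adjusted p = 1.48e-06) and miR-141-5p at 0.26 ± 0.04 (limma, adjusted p = 8.55e-06). The widely used epithelial marker miR-200c-3p was at 0.22 (limma, adjusted p = 0.0645), miR-203-3p at -0.25 (adjusted p = 0.138), miR-200a-3p at -0.01 (adjusted p = 0.974) and miR-375-3p at 0.05 (adjusted p = 0.719).

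At 4 weeks 5 of the 11 rose and 2 fell, with a median of 0.23 against 0.17 for all 272. Among all 272, 73 rose and 31 fell at 4 weeks. Those of the list that rose were miR-200c-3p at 0.57, miR-200b-5p at 0.47, miR-200b-3p at 0.43, miR-429-3p at 0.37 and miR-141-5p at 0.19. Those that fell were miR-203-3p at -0.72 (limma, adjusted p = 0.0259) and miR-205-5p at -1.40 (adjusted p = 0.0261), both known from stratified epithelia. At 6 weeks and at 12 weeks 2 rose and 0 fell, and at 8 weeks 0 of 11 passed in either direction. Among all 272, 21 rose and 1 fell at 6 weeks, 10 rose and 20 fell at 8 weeks, and 14 rose and 12 fell at 12 weeks. The summed signal of the 11 ran from 2.72 to 3.15 log2 over smoke arrays (median 2.94) and from 2.68 to 2.95 over control arrays (median 2.86). The part of epithelial content in the results of the cluster was not tested.

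Lists for other cell types of lung were read beside these. Of 7 miRNAs known from multiciliated cells 5 were tested, and on average miR-449a-5p rose, at 0.67 (limma, adjusted p = 4.93e-06), while the other 4 did not pass. It also rose at 6 weeks, at 0.86, and at 12 weeks, at 1.52 (limma, adjusted p = 0.00202 and 3.36e-06). At 4 weeks miR-34b-5p fell, at -0.81 (limma, adjusted p = 0.0240), and so did miR-34c-5p, at -0.64 (adjusted p = 0.0113). The sum of the 5 was 0.23 to 1.67 log2 in smoke and 0.52 to 1.47 in control. Of 5 leukocyte miRNAs miR-155-5p rose, at 0.54 (limma, adjusted p = 0.000367), and both strands of miR-142 fell, miR-142-3p at -0.65 (adjusted p = 0.00551) and miR-142-5p at -0.65 (adjusted p = 0.000377). At 4 weeks miR-142-3p was at -1.28 (limma, adjusted p = 0.00820), miR-142-5p at -1.06 (adjusted p = 0.00502), miR-155-5p at 0.86 (adjusted p = 0.00595) and miR-223-3p at 0.76 (adjusted p = 0.0379). The sums of the 5 ran from 2.35 to 3.43 in smoke and from 2.82 to 3.36 in control. Of the endothelial pair, miR-126-3p fell on average, at -0.13 (limma, adjusted p = 0.00737), and at 12 weeks, at -0.25 (adjusted p = 0.0318), and miR-126-5p did not pass. The pair summed to 4.71 to 5.02 in smoke and 4.77 to 5.21 in control. Of 5 smooth muscle and mesenchymal miRNAs miR-199a-3p rose on average and the other 4 did not pass, with sums of 2.47 to 2.78 in smoke and 2.40 to 2.75 in control. Striated muscle miRNAs summed to 0.42 to 2.80 in smoke and -0.25 to 2.74 in control. At 4 weeks miR-133a-3p and miR-133b-3p, both of striated muscle, fell, at -0.93 and -0.98 (limma, adjusted p = 0.0467 and 0.0440). The striated muscle sum at 4 weeks was 0.71 to 0.89 in smoke and 0.85 to 2.74 in control. At 6 weeks miR-133a-3p and miR-133b-3p were at 1.12 and 1.08 and did not pass (limma, adjusted p = 0.0561 and 0.0758).

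The liver miRNA miR-122-5p was above the floor of the scale, -6.74, on 6 of 15 smoke arrays and on 0 of 16 control arrays. It was at 1.57 on smoke array 3 of 12 weeks. The other 5 were lower, with -6.68, -5.50 and -4.70 on smoke arrays 1, 2 and 3 of 4 weeks and -5.61 and -5.93 on smoke arrays 2 and 4 of 8 weeks. Neither its averaged difference of 1.02 nor that of 2.77 at 12 weeks passed (limma, adjusted p = 0.140 and 0.106). Without smoke array 3 of 12 weeks the members' differences at 12 weeks were 0.30 for miR-183-5p, 0.37 for miR-182-5p and 0.39 for miR-96-5p (limma, adjusted p = 0.139, 0.120 and 0.206). The part of these cell types in the results was not tested.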

How the data were processed

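Agilent scanner files of 31 arrays (lung miRNAs, 1 colour) were used. Per the file headers, Feature Extraction 10.7.3.1 made the deposited intensity values by subtracting background and detrending, without scaling between arrays. The authors' deposited log2 table, used as an alternative, correlated with the scanner values at r = 0.981 to 0.989 per array, with column medians of 2.71 to 2.85. Its scale matches log2, and the sources used here do not name its normalization or centring. Control and outlier spots were left out (297 to 655 outliers per array), spots of a probe were averaged, and signals were scaled per array by the 75th percentile of the 385 probes detected everywhere. Values under a floor of -6.74 log2 were set to it. The brightest probe stood for each miRNA.

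The 272 tested miRNAs were fitted with limma 3.58.1 in R 4.3.3, with a mean for each of 8 groups, moderated variances and Benjamini-Hochberg adjustment over all 272. An adjusted p of 0.05 or less passed. Differences and correlations between members used 100000 permutations. Named were the members, their opposite strands, the 5 miRNAs most correlated with each member, and of the epithelial list those that passed on average and up to 4 others, besides miRNAs of the cell type lists that passed a test and miR-122-5p, chosen after their values were seen. The members and lists were chosen with earlier results of these data known. Normexp was run on median spot signals, since mean spot signals were not among the columns used. The number of arrays limits the precision. No 2 arrays held identical values. The procedures were tested on simulated data.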

Additional observations from a re-analysis of the deposited data

Results flagged for a closer look

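In 2 of the 21 groups of 4 arrays examined (3 members, 7 groups), 1 array stood apart from the other 3 by Dixon's 95% criterion, which chance meets in about 1 group in 20. For miR-182-5p in 6 weeks smoke, replicate 2 was at -5.34 log2, with the other 3 between -5.94 and -5.91. For miR-182-5p in 6 weeks control, replicate 1 was at -6.30, with the other 3 between -6.13 and -6.10. Both belong to the dimmest of the members, and both point away from the other condition. No group of miR-183-5p or miR-96-5p met the criterion.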

How the results depend on the processing

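The averaged rises of miR-183-5p and miR-182-5p passed under every alternative in which they could be tested except no scaling (0.24 and 0.19) and normexp (0.053 and -0.10). miR-96-5p was at -0.011 and -0.012 under these, and passed at 0.24 with the component score and at 0.24 without smoke arrays 2 and 3 of 4 weeks; leaving out 1 array gave 0.10 to 0.19. With the floor 4 times higher miR-182-5p lay at the floor on all 31 arrays and gave no value, and it was not among the miRNAs detected on every array. The mean over probes shrinks its change by construction, since its other probe lies at the floor, and then miR-183-5p minus miR-182-5p passed at 0.20. The labels do not say whether replicate numbers pair the arrays. Same-numbered arrays within a duration correlated at -0.21 to 0.41, above 0.1 in 7 of 15 pairs, which does not settle it. With the replicate block the averages were 0.38, 0.35 and 0.14, 71 miRNAs passed on average, and no member's call changed; nor did one with slide as a block.

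By duration, no scaling put the members at -0.66, -0.76 and -0.73 at 8 weeks. Normexp put miR-183-5p at -0.46 and miR-182-5p at -0.97 at 4 weeks, where the median of all miRNAs was -0.75, and miR-182-5p at -0.087 at 12 weeks. In the deposited table miR-182-5p was at -0.051 at 8 weeks. miR-96-5p at 4 weeks turned to 0.35 with the component score and 0.31 without smoke arrays 2 and 3, and leaving out 1 array gave -0.26 to 0.10. At 8 weeks leaving out 1 array gave -0.027 to 0.21 for miR-182-5p and -0.0066 to 0.18 for miR-96-5p. Leaving out 1 array put the effect on miR-183-5p minus miR-96-5p at 0.17 to 0.30 and that on miR-182-5p minus miR-96-5p at 0.14 to 0.27, which turned to -0.089 with normexp. The correlation of miR-183-5p with miR-96-5p was 0.78 with no scaling, 0.81 with normexp, 0.17 without smoke arrays 2 and 3 of 4 weeks, and -0.25 to 0.073 when 1 array was left out. That of miR-182-5p with miR-96-5p was 0.78, 0.81 and 0.081 in those settings, 0.066 with quantile scaling, 0.087 in the deposited table, and -0.22 to 0.0022 when 1 array was left out. The cause of these changes was not tested.

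Counts of all miRNAs that passed were 75 on average, 104, 22, 30 and 26 at 4, 6, 8 and 12 weeks, 19 for effects differing between durations and 19 among control durations. No scaling gave 29, 4, 2, 203, 5, 133 and 151 in that order, normexp 12, 46, 4, 3, 4, 0 and 4 (the 0 is limma's, with 37 at an unadjusted p of 0.05), a floor 4 times higher 45, 63, 13, 18, 15, 10 and 11, and the component score 148, 43, 81, 101, 104, 68 and 97. Scaling over all probes gave 60 at 4 weeks and 84 among control durations, quantile scaling 45 at 12 weeks and 12 for differing effects, the scanner's sum 60 at 8 weeks, the authors' own values 52 at 8 weeks, 46 at 12 weeks, 37 for differing effects and 35 among control durations, and detection on every array 12 among control durations. Without smoke arrays 2 and 3 of 4 weeks 15 passed at 4 weeks, 46 at 12 weeks and 66 among control durations, and arrays of 1 duration alone gave 18 at 4 weeks and 94 at 12 weeks. Leaving out 1 array gave 36 to 149 at 4 weeks, 10 to 66 for differing effects and 7 to 43 among control durations. On average 42 passed as higher and 33 as lower, against 8 and 21 unscaled, 33 and 76 by the scanner's sum and 45 and 66 in the deposited table.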
